A study of Mus musculus with 2 samples.

Results

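The fibrillar collagens are the collagens that assemble into the banded fibrils of connective tissue, and 9 of their genes are described here: Col1a1, Col1a2, Col2a1, Col3a1, Col5a1, Col5a2, Col5a3, Col11a1 and Col11a2. They were taken as a named family, not by their signal, and stand among 21887 protein-coding genes of the RefSeq table for mm10. Each locus was the gene body with 20 kb on either side. The assay was ATAC-seq, which reads out where Tn5 transposase can cut the chromatin, and the nuclei were those of hepatic stellate cells, liver pericytes that store vitamin A. There was 1 group of 2 libraries, replicates A and B. The mice were healthy C57BL6/JBomTac animals on chow, of an age not given in the sources used here. They carried the allele Gt(ROSA)26Sortm1(mCherry-Rpl10a-Flop)Kra together with the transgene Tg(Lrat-cre)1Rshw, labelled B6.Cg. The Lrat promoter drives Cre in stellate cells, and nuclei were sorted for mCherry-RPL10A. No condition was compared with another, so the results are levels and positions in healthy liver. The labels do not say whether A and B were separate animals, and differences between them may be technical.

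Collagen chains wind into triple helices, are secreted as procollagens and are trimmed outside the cell before they pack into fibrils. Type I collagen, built from the products of Col1a1 and Col1a2, and type III collagen, from Col3a1, form the bulk of scar tissue in the liver. Type V collagen, from the Col5 genes, co-assembles with type I and sets the width of its fibrils, while types II and XI are the collagens of cartilage. Stellate cells make little fibrillar collagen in healthy liver and are its main source after injury. Open chromatin is not transcription, and the level of none of these genes was measured here.

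Replicate A held 36577 peak entries and replicate B 28794. The number of reads behind them is unknown. The fold enrichment of an entry is the authors' value, the signal over the local background of their peak caller. It is not scaled between the libraries, so the place of an entry in its own list is given beside it, as its rank in percent counted from the strongest entry. An entry of A that overlapped one of B by 1 bp or more is called replicated, and 64.1% of the entries of A and 81.7% of those of B were. The labelled cell type was set beside short marker lists. These were chosen with earlier results of these data known, so the counts are not an independent check. The cholangiocyte and chondrocyte lists share a gene. A replicated peak lay within 1 kb of a gene end at 9 of 10 stellate cell genes, 0 of 6 hepatocyte genes, 0 of 6 Kupffer and myeloid genes and 1 of 6 sinusoidal endothelial genes. The count was 0 of 5 for cholangiocyte genes, 0 of 6 for portal fibroblast and mesothelial genes and 0 of 7 for chondrocyte genes, and the share over all protein-coding genes was 41.9%. In the whole locus the lists lay closer together: 10 of 10 stellate cell genes had a replicated peak, 3 of 6 sinusoidal endothelial and 3 of 6 portal fibroblast and mesothelial genes, 2 of 7 chondrocyte genes and 1 gene of each other list, against 64.6% of protein-coding genes. The names of the entries of B start with the word Oil, which those of A lack, while both labels say control and chow. The labels were followed. Whether this word bears on the differences between A and B was not tested.

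A replicated peak lay at a gene end of every type III and V gene and of Col1a2. Col1a1 and the cartilage genes of types II and XI had none in or at the gene. At Col1a1, however, each replicate had its own entry at the lower end, and these did not overlap. The replicated peaks of Col1a1 lay 7.06 kb below and 4.97 kb above that gene, and that of Col11a2 lay 7.06 kb below its gene. At least 1 replicated peak lay in 8 of the 9 loci, where 64.6% of all protein-coding genes and 74.8% of those with a body length in the range of the members had one. The exception was Col11a1. At Col2a1 and Col11a2 the single replicated peak lay at the end of a neighbouring protein-coding gene, which leaves 6 loci. The same reduction was not made for all protein-coding genes, so these 6 have no background share to stand beside. A replicated peak within 1 kb of an end of the gene itself was found at 5 of 9 members, Col1a2, Col3a1, Col5a1, Col5a2 and Col5a3, against 41.9% of protein-coding genes and 50.4% of those in the same length range. No test was made of these shares, and with 9 genes it was not settled whether the family differs from the background. The members differed among themselves.

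The 9 loci held 20 replicated peaks in all. Of these, 5 lay at a gene end of the member, 5 in a gene body away from the ends and 10 outside the genes. The number per locus was 5 at Col5a1, 4 at Col1a2 and Col5a3, 2 at Col1a1 and Col3a1, 1 at Col2a1, Col5a2 and Col11a2, and 0 at Col11a1. At least 4 thus lay at Col5a1, Col1a2 and Col5a3, and at 12.1% of protein-coding genes of any length. This share was not worked out for genes of like length. The median was 2 per locus for the members against 1 for all protein-coding genes, with median body lengths of 38.2 kb and 17.2 kb. Set against length, Col1a2 had 5.27 replicated peaks per 100 kb of locus, Col5a3 4.70, Col1a1 3.52, Col5a1 2.59 and Col3a1 2.56. Col11a2 had 1.48, Col2a1 1.45 and Col5a2 0.592. The median of the members was 2.56 per 100 kb against 1.57 for all protein-coding genes. The order by density therefore differs from the order by number, since the Col5a1 locus spans 193 kb and that of Col1a2 75.9 kb.

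**Figure D1:**
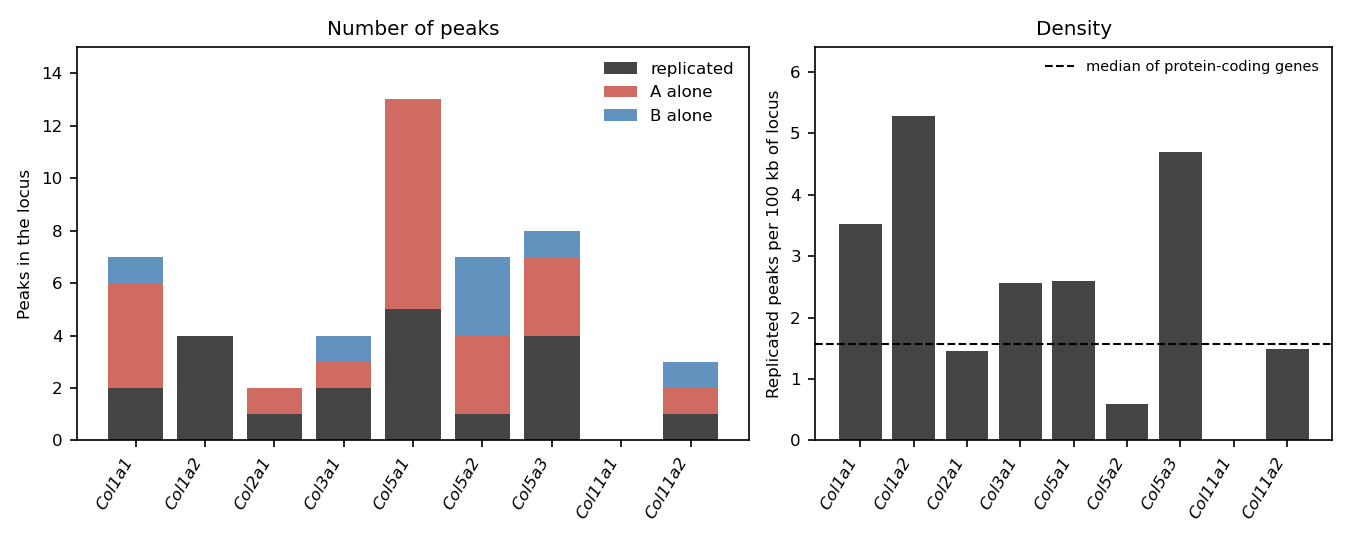
Left, the number of peaks in the locus of each gene (gene body with 20 kb on either side), split into replicated peaks, peaks of replicate A alone and peaks of replicate B alone. Right, replicated peaks per 100 kb of locus, with the median of protein-coding genes (1.57) as a dashed line; Col1a2 is highest at 5.27 and Col11a1 has none.

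Gene starts are shown first, because the sequence of the start region is known for 6 members. RefSeq (GRCm38.p6, the assembly of mm10) gives a promoter for Col1a2, Col3a1, Col5a1, Col5a3, Col11a1 and Col11a2. In all 6 lines below the sequence runs 5′ to 3′ along the gene from 250 bases before the start to 30 bases after it. Capitals mark the bases that lie inside an entry of A and an entry of B. The sequences lie at chr6:4505368-4505647 (plus strand), chr1:45311288-45311567 (plus), chr2:27886175-27886454 (plus), chr9:20815038-20815317 (minus), chr3:114030290-114030569 (plus) and chr17:34038888-34039167 (plus). The first 4 are overlapped by a replicated peak and the last 2 are not.
Col1a2: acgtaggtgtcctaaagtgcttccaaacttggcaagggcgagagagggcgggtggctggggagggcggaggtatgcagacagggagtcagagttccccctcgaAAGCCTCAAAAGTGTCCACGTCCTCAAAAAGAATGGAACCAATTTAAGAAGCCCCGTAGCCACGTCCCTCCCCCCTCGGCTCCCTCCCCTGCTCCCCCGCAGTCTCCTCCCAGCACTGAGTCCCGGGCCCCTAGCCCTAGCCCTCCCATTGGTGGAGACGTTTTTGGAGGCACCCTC
Col3a1: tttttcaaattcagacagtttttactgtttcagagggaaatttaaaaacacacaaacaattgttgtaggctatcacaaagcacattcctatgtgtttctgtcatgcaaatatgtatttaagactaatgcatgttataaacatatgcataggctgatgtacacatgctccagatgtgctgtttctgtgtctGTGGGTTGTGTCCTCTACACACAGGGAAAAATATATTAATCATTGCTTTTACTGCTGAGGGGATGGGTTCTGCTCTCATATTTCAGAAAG
Col5a1: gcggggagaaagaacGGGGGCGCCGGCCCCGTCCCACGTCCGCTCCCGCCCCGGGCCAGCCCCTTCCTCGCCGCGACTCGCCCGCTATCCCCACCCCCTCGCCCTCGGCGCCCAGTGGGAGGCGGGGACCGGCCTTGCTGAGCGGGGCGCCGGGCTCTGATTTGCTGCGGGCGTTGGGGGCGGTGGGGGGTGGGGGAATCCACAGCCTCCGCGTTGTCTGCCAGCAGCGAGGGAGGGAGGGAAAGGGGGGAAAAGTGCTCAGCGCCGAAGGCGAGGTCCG
Col5a3: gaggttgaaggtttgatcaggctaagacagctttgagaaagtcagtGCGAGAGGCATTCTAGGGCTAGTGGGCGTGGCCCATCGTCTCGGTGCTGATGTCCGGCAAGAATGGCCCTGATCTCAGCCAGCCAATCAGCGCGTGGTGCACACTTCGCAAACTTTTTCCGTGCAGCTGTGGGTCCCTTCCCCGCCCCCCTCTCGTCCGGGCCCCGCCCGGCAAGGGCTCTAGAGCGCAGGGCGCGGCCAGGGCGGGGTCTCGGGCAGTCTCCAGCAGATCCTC
Col11a1: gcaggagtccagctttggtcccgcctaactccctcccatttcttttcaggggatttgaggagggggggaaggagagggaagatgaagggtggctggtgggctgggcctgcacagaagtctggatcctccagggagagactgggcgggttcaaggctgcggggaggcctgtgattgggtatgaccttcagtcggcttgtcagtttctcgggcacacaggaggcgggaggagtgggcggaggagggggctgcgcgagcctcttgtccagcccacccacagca
Col11a2: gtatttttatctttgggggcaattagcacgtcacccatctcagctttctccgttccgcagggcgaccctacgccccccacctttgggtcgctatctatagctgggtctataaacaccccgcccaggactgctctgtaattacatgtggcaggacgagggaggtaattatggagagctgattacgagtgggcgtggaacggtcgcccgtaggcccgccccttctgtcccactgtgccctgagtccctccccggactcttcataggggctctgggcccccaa

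A replicated peak thus overlapped 4 of the 6 promoters of 300 bases, against 37.4% of the promoters of all protein-coding genes. The 6 are not the whole family. Of the members without a RefSeq promoter, Col5a2 had a replicated peak at a gene end, and Col1a1 and Col2a1 had none. Among the 6, the 2 without a replicated peak were not poor in G and C. Their GC content was 62.3% at Col11a1 and 59.0% at Col11a2, above the median of 56.3% over the coding promoters. Of the promoters at or above that median 56.6% were overlapped by a replicated peak, and of those below it 17.3%. Among the 4 overlapped, Col5a1 had 75%, Col5a3 63.3% and Col1a2 61.0%. Col3a1 stood apart from these with 37.7% and no CpG dinucleotide, and only 6.08% of coding promoters had a lower GC content than Col3a1. The number of CpG dinucleotides was 34 at Col5a1, 20 at Col5a3 and 13 at Col1a2. At Col11a1 it was 9 and at Col11a2 16. Whether base composition bears on these peaks was not tested.

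Short motifs were searched as exact letters on both strands of the 300 bases, and each share is that of all coding promoters that hold the motif. The GC box GGGCGG (46.2%) was in 5 of the 6, all but Col3a1, and the CCAAT box CCAAT (38.2%) in Col1a2, Col5a3 and Col11a1. Among promoters overlapped by a replicated peak, 72.4% held the GC box and 43.7% the CCAAT box. All 5 promoters with the GC box had a GC content above the median of coding promoters. In Col1a2 the CCAAT match on the plus strand lay at −109 to −105 from the start, inside both entries, and its NFI motif TTGGCA (13.1%) at −222 to −217, outside them. The TATA box letters TATAAA (12.6%) were in Col3a1 at −117 to −112, outside the replicated peak, and in Col11a2 at −143 to −138. The E-box CANNTG (69.0%) was in Col3a1, Col5a3 and Col11a2. Among the 6, the SOX motif AACAAT (9.05%) was in Col3a1 alone, on both strands in matches that overlap each other and an E-box match. The SMAD motif GTCTGG (18.2%) and the nuclear receptor motif AGGTCA (14.7%) were in Col11a1 alone of the 6. None of the 6 promoters held the AP-1 motif TGANTCA (6.99%), the RUNX motif TGNGGT (44.1%) or the ETS motif GGAAGTG (12%) in this window; Col1a1, Col2a1 and Col5a2 were not searched. These are matches of letters, not binding sites.

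Col1a2, which encodes the α2 chain of type I collagen, lies on chromosome 6 from 4505618 to 4541543. All 4 entries of A in its locus and all 4 of B were replicated, which held for no other member with entries. The peak over the start, at 4505463 to 4505692, was enriched 13.8-fold in A and 15-fold in B, in the top 24.1% and 15.3% of their lists. Its summits lay 40 and 58 bp before the start.

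The other 3 replicated peaks of Col1a2 formed a group far upstream, with summits 17.1, 16.1 and 15.5 kb before the start in A. They were at 4488449 to 4488616, 4489423 to 4489693 and 4489944 to 4490206, a span of 1758 bp in A and 1768 bp in B. The middle peak was the strongest of the locus in both libraries, enriched 14.5-fold in A (top 20.9%) and 15.5-fold in B (top 13.5%). The outermost was enriched 7.15-fold in A and 7.85-fold in B, and the innermost 11.6 in A and 9.54 in B. No other gene of the RefSeq table lies in the locus. Of all replicated peaks away from the ends of protein-coding genes, 0.554% had 2 or more others within 2 kb, a window chosen after the Col1a2 group was seen. A far-upstream enhancer of Col1a2 that acts in fibroblasts is known from transgenic mice; its coordinates are not in the files, so these peaks were not matched to it. The body of Col1a2 beyond the start region, and its other flank, had no entry in either replicate.

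Col1a1, which encodes the α1 chain of type I collagen, lies on chromosome 11 from 94936224 to 94953042 and differed from Col1a2 at its end. Each replicate had 1 entry within 1 kb of the lower end, but the entries did not overlap. That of A, at 94936872 to 94937301, had a fold enrichment of 10.2 (top 47.8%). That of B, at 94936114 to 94936324, had 7.77 (top 73.8%). Each ranked above the replicated peak at the Col3a1 start in its own list (top 87.4% in A and 96.8% in B). The entries of A and B at the Col1a1 end were 547 bp apart, and only the entry of B covered the end itself. Of all protein-coding genes, 0.493% had an end with entries of both replicates and no replicated one. That share also counts genes without an entry at an end. It therefore does not give how rare the pattern is among genes with entries of both replicates there. The lists thus hold no replicated peak at either end of Col1a1 or in its body, although each library alone had an entry there.

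Both replicated peaks of Col1a1 lay outside the gene. The first, at 94928793 to 94929167, was 7.06 kb below the gene and inside the noncoding gene Gm46293, within 1 kb of an end of Gm46293. It was enriched 15.3-fold in A and 14.4-fold in B, in the top 17.5% and 17.6%. It was flanked in A alone by 2 weak entries of 6.36 and 5.33. The second, at 94958015 to 94958636, was 4.97 kb above the gene, before Sgca, enriched 15.1-fold in A and 11.9-fold in B. This was the widest entry of A in any of the loci, at 622 bp. These 2 peaks were each stronger in both libraries than the entries at the end of the gene.

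Col3a1, which encodes the single chain of type III collagen, had the weakest peak of the 5 members with a replicated peak at a gene end. The gene lies on chromosome 1 from 45311538 to 45349706. The peak over its start, at 45311478 to 45311646, was enriched 6.90-fold in A and 5.79-fold in B, in the top 87.4% and 96.8%, so nearly all entries of B were stronger. The summits lay 29 and 65 bp after the start. A replicated peak 7.04 kb upstream, at 45304348 to 45304497, was enriched 5.73-fold in A and 9.35-fold in B, the lowest ratio of A to B among the 20 at 0.613. Replicate B alone had an entry in the body, 1.54 kb after the start, with 9.81, and A alone had one 6.30 kb above the gene with 6.37. That last entry also lies in the locus of Col5a2, since the genes are 24.6 kb apart.

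**Figure D2:**
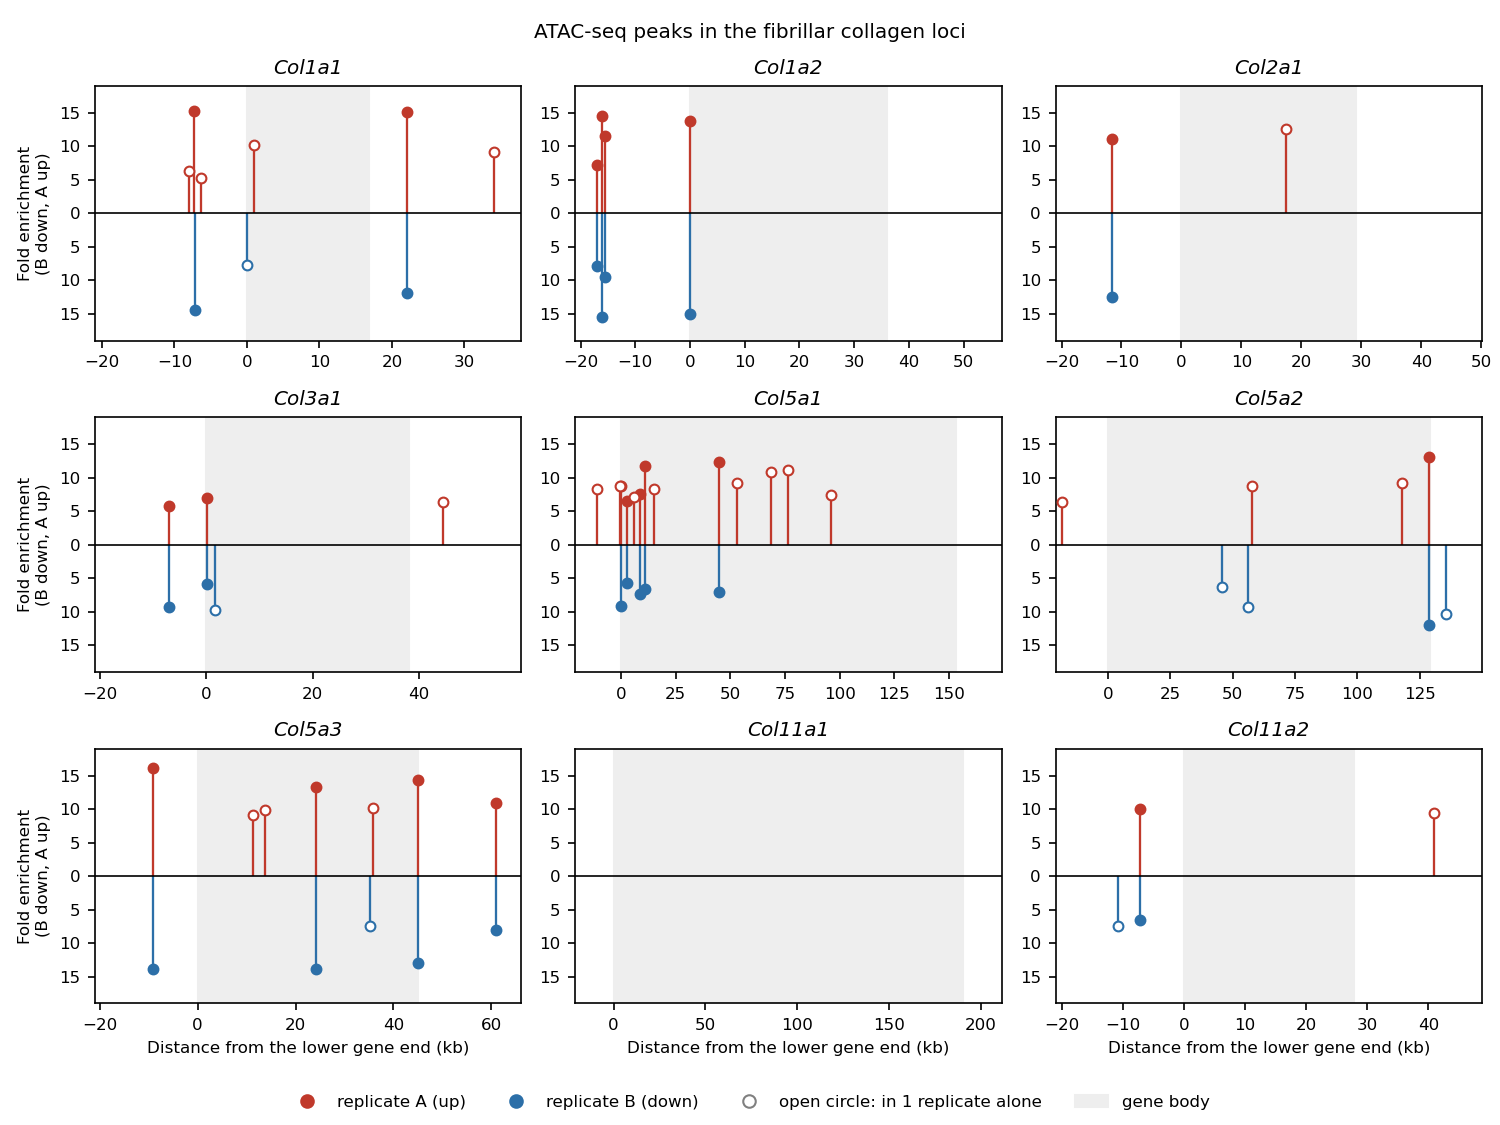
Peaks of each locus at their summits, by distance in kb from the lower end of the gene (in the order of the chromosome, not of transcription), with the fold enrichment of replicate A drawn upward and that of B downward on a linear scale. Filled circles are replicated peaks, open circles peaks of 1 replicate alone and grey the gene body; Col11a1 has no peak, Col1a2 has a group of 3 upstream of its start and Col5a1 has most of its peaks in the first part of the gene.

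Col5a1, which encodes the main α1 chain of type V collagen, had the most peaks and the largest difference between the libraries. The gene lies on chromosome 2 from 27886381 to 28039510. A had 13 entries in the locus and B had 5, all of which were replicated. The peak over the start, at 27886190 to 27886475, was enriched 8.72-fold in A and 9.19-fold in B (top 63.7% and 54.2%). A further entry of A, at 27885867 to 27886062, holds the same fold enrichment and −log10 q as the one over the start.

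The other 4 replicated peaks of Col5a1 lay in the gene body, with summits in A 2.65, 8.74, 11 and 45 kb after the start. Their fold enrichment was 6.47, 7.64, 11.7 and 12.3 in A, in that order, and 5.76, 7.42, 6.64 and 7.07 in B. The 2 farthest from the start thus had the highest ratios of A to B among the 20 replicated peaks, at 1.77 and 1.74. From 1 kb before the start to 16 kb after it lay 7 of the 13 entries of A and 4 of the 5 of B. The 8 entries of A alone ranged from 7.08 to 11.2. Beyond 95.9 kb after the start, the rest of the body and the flank above it had no entry.

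Col5a2, which encodes the α2 chain of type V collagen, had its replicated peak at its higher end. The gene lies on chromosome 1 from 45374331 to 45503282, and the peak, at 45503025 to 45503248, was enriched 13.1-fold in A and 11.9-fold in B (top 27.2% and 30.6%). The other entries of its locus, 3 in A and 3 in B, did not overlap. Those of A had 6.37, 8.78 and 9.20, and those of B 6.37, 9.36 and 10.4. The locus spans 169 kb with 1 replicated peak, and that of Col5a1 193 kb with 5.

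Col5a3, which encodes a further type V chain, had replicated peaks at its start, in its body and on both flanks. The gene lies on the minus strand of chromosome 9 from 20770050 to 20815117. The peak over the start, at 20814975 to 20815276, was enriched 14.4-fold in A and 13.0-fold in B (top 21.1% and 24.2%), with summits 66 and 69 bp before the start. The peak in the body, at 20794139 to 20794596, was enriched 13.3-fold in A and 13.8-fold in B, 20.8 kb after the start. The strongest entry of A in any of the loci lay beyond the far end of the gene, at 20760749 to 20761242, enriched 16.1-fold in A and 13.9-fold in B (top 15% and 19.6%). A weaker one lay 15.9 kb upstream, at 20830855 to 20831169, enriched 10.9-fold in A and 8.03-fold in B; it was not within 1 kb of an end of Rdh8, the neighbouring gene. In the body, A alone had 3 entries of 9.04 to 10.1 and B alone had 1 of 7.43.

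By rank in the list, the order of the replicated peaks at gene ends was Col5a3, Col1a2, Col5a2, Col5a1 and Col3a1 in A, and Col1a2, Col5a3, Col5a2, Col5a1 and Col3a1 in B. The ranks of Col1a2 and Col5a3 overlapped between replicates, so their order was not fixed. Col5a2 ranked below both in each replicate, and Col5a1 and Col3a1 lay well below these 3. Over all genes, replicated peaks within 1 kb of a protein-coding gene end were enriched by a median of 14.4-fold in A and 12.9-fold in B. Col5a3 in A and B and Col1a2 in B were at or above that median to 3 digits, and the others lay below it.

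**Figure D3:**
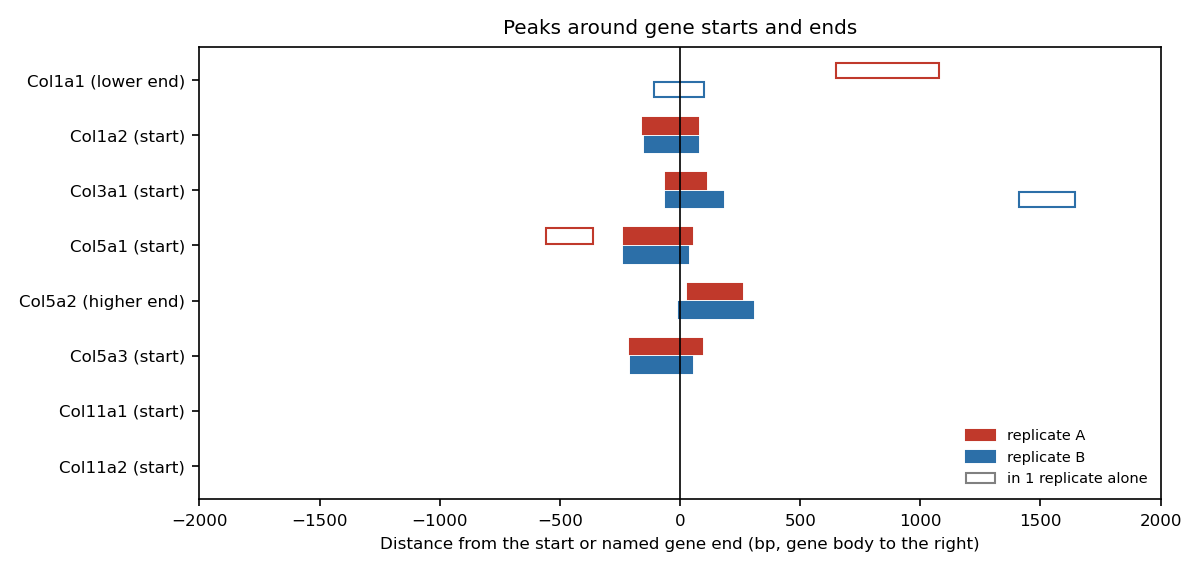
Extent of the peaks within 2000 bp of the gene start (where RefSeq gives a promoter) or of the named gene end, in bp with the gene body to the right; replicate A is above replicate B, and unfilled bars are peaks of 1 replicate alone. The peaks of A and B coincide at Col1a2, Col3a1, Col5a1, Col5a2 and Col5a3, lie apart at Col1a1 and are missing at Col11a1 and Col11a2; Col2a1, which had none at either end, is not drawn.

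The cartilage collagens had no replicated peak in or at the gene. Unlike Col1a1, which had an entry of each replicate at its lower end, they had no entry at a gene end in either list. Col11a1, which encodes the α1 chain of type XI collagen, spans 190 kb of chromosome 3 from 114030479 to 114220756, the longest body of the family. Neither list had an entry in its locus of 230 kb, nor within 50 kb of the gene a replicated one. No entry of either list was found at 27.2% of protein-coding genes, and at 18.6% of those at least as long as Col11a1. Col2a1, which encodes the chain of type II collagen, lies on chromosome 15 from 97975602 to 98004724. Its body held 1 entry, at 97993001 to 97993213, in A alone, with a fold enrichment of 12.6, the highest among the entries found in 1 replicate alone. It lies inside both Col2a1 and the noncoding gene Gm46536. The replicated peak of the locus, at 97963970 to 97964209 and enriched 11.1-fold in A and 12.5-fold in B, lay at an end of Tmem106c.

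Col11a2, which encodes the α2 chain of type XI collagen, lies on chromosome 17 from 34038919 to 34066684, in a stretch dense with other genes. Its body had no entry in either replicate. The replicated peak of the locus, at 34031578 to 34031860 and enriched 9.96-fold in A and 6.60-fold in B, lay 7.06 kb below the gene, where the ends of Slc39a7 and of the retinoid X receptor gene Rxrb meet. The chondrocyte marker genes, which are expressed with types II and XI in cartilage, had a replicated peak at the gene end in 0 of 7 and in the locus in 2 of 7, against 41.9% and 64.6% of protein-coding genes. This was not particular to cartilage genes. The hepatocyte, Kupffer and myeloid, cholangiocyte, and portal fibroblast and mesothelial lists also had no gene-end peak.

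Over the 20 replicated peaks, the median fold enrichment was 11.6 in A and 9.45 in B, against 11.9 and 10.4 over all replicated peaks. The median rank was in the top 36.2% in A and 51.8% in B, against 35% and 42%. In the top 25% of their list were 6 of the 20 in A and 6 in B (30% each), against 37.2% and 30.4% of all replicated peaks. The median ratio of A to B was 1.1, against 1.11 over all replicated peaks, and ran from 0.613 to 1.77. The summits of A and B were 3 to 71 bp apart, with a median of 25.5 bp against 24 bp. No test was made of these differences.

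**Figure D4:**
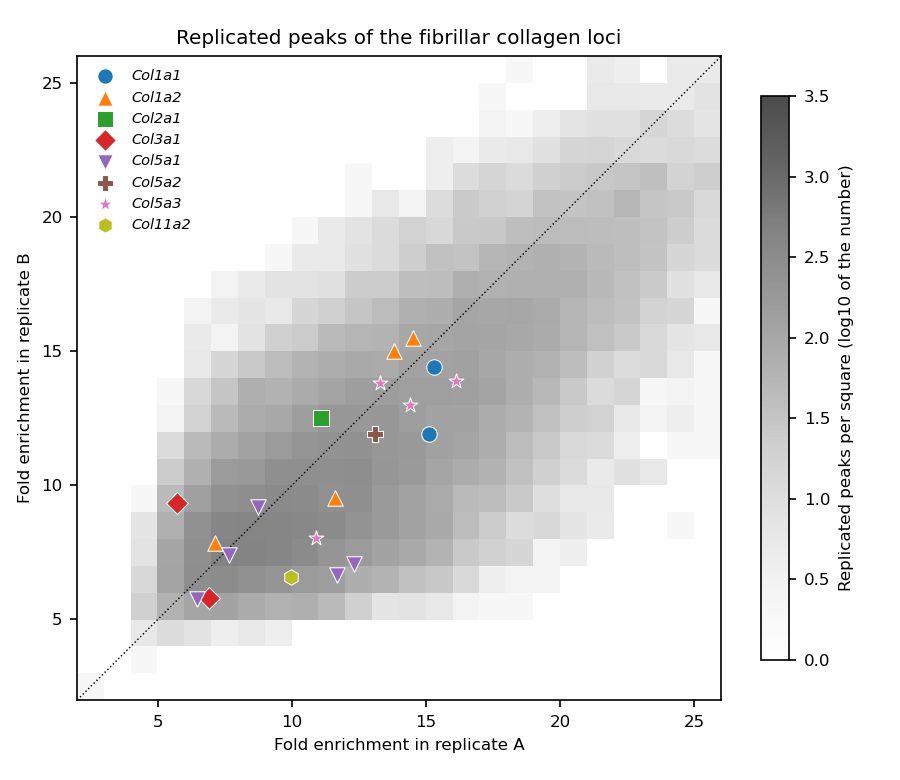
Fold enrichment in replicate B against that in replicate A for the 20 replicated peaks of the fibrillar collagen loci, by gene, over all replicated peaks in grey (number per square on a log10 scale; values above 26 are not drawn). The dotted line is equality. Farthest below it lie 2 peaks of Col5a1 and farthest above it 1 of Col3a1, and no member lies among the strongest peaks.

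Many entries of the loci were found in 1 replicate alone. Of 40 entries of A in the loci, 20 (50%) were replicated, against 64.1% of all entries of A. Of 27 of B, 20 (74.1%) were, against 81.7%. The 20 of A alone had a median fold enrichment of 9.09, with a range of 5.33 to 12.6, and 8 of them lay at Col5a1. The 7 of B alone had a median of 7.77 and ranged from 6.37 to 10.4. No entry of the loci shared its name with another.

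The other genes of collagen fibril assembly and turnover were read from a list of 40, which holds the procollagen proteinases, chaperones and hydroxylases, small leucine-rich proteoglycans, collagen receptors and collagenases. At least 1 replicated peak lay in 36 of the 40 loci (90.0%, against 64.6% of protein-coding genes). A gene-end peak was found at 20 (50%, against 41.9%). The median was 3 per locus, against 2 for the fibrillar collagens. Gene length was not matched in these comparisons, and for this list no share was worked out among genes of like length. The differences were not tested either, so it was not settled whether the list differs from the background or from the fibrillar collagens. Adamts2, which encodes the proteinase that removes the N-propeptide of procollagen, had 11 replicated peaks over a body of 205 kb. Itga1, a collagen-binding integrin gene, had 10, Tnxb, which encodes tenascin-X, had 8 and Ddr2, a collagen receptor kinase gene, had 7. The strongest at Ddr2 was enriched 29.3-fold in A and 24.9-fold in B, above the strongest fibrillar collagen peak in each library. No replicated peak was found at Tll1 and Tll2, which encode tolloid-like proteinases, Fap, a cell-surface protease gene, or Lum, which encodes lumican. Col24a1 and Col27a1, which encode further fibrillar collagens and are named here outside the rule, had 3 and 7 replicated peaks; that of Col24a1 included a gene end and that of Col27a1 did not.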

How the data were processed

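Each library has 1 deposited peak list without a header. The tools named in the submitters' processing notes, without roles, are MACS2, HOMER, bedtools, Picard, SAMtools and STAR 2.7.0, with mm10 as the build; the handling of the Tn5 offset and the cleaning were not given in the sources used here. Every entry carries, as the authors deposited them, a fold enrichment (a linear ratio), the −log10 p and −log10 q, a score derived from the q and a summit. No values are scaled between the libraries, read depth is unknown, and no test between groups was possible with 1 group. No interval is given, since no reads are counted.

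Entries were intersected in Python 3.11.15 with numpy 2.4.6 and pandas 2.3.3; figures used matplotlib 3.10.9. The functions were tested on simulated intervals. Coordinates are 1-based. Gene spans and promoters (250 bases before to 50 after the start) came from RefSeq, GRCm38.p6; 6 of 9 members had a promoter, which gave their start and strand, and the others were read at both gene ends. All 40 assembly genes matched, 1 through a synonym. Entries of A gave the coordinates and counts of replicated peaks. Named genes are the 9 members, protein-coding neighbours whose end held a replicated peak, and of the assembly list the 4 with most replicated peaks and the 4 longest with none. Gm46293, Gm46536, Sgca, Rdh8, Col24a1, Col27a1 and the genes of the closing section were named with their values already seen. The members and lists were chosen with earlier results of these data known. Alternatives were another overlap, stricter thresholds, other flanks and windows, and each replicate alone.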

Additional observations from a re-analysis of the deposited data

How the results depend on the processing

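At least 1 replicated peak lay in 8 loci, in 4 with the 10000 strongest entries of each list and in 5 with the gene body alone. A replicated gene-end peak was found at 5 members and at 3 with the 10000 strongest entries; Col3a1 and Col5a1 had none then, and with 1 replicate alone the count was 6, with Col1a1 added. The total of 20 was 8 with the 10000 strongest entries, 11 with entries above the median −log10 q, 10 in gene bodies alone and 27 to 40 with 1 replicate alone. The median per locus of 2 was 1 with reciprocal overlap of 50%, 0 with the 10000 strongest entries, 1 above the median −log10 q, 1 in gene bodies alone and 3 to 4 with 1 replicate alone. In the locus of Col5a1 replicate A alone had 13, B 5, and the 10000 strongest entries left 0. Col11a1 had 0 under all 8 alternatives run on the loci. Without peaks at ends of other protein-coding genes, an alternative chosen after seeing the data, 6 loci and 18 peaks were left. Ends of noncoding genes were not counted in this, so the Col1a1 peak within 1 kb of an end of Gm46293 was kept. With 50 kb on either side the total was 26. No paired analysis was possible because there is 1 group and no test. Unknown depth limits what the lack of an entry shows: a weaker opening would not be in these lists.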

Other observations

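Beyond the 20 kb flanks, 6 more replicated peaks lay within 50 kb of a member. Col1a1 had 3 of them on its upper side, 25.9, 36.7 and 37.7 kb outside the gene, with a fold enrichment of 15.2, 9.49 and 10.6 in A and 12.4, 9.02 and 9.37 in B; the last lay at an end of Ppp1r9b. Col3a1 had 1 at 35.2 kb below the gene, with 8.97 in A and 8.09 in B. Col5a2 had 1 at 38.7 kb above the gene, with 12.2 in A and 13.1 in B. The strongest, with 26.1 in A and 21.2 in B, was 38.4 kb below Col11a2 at an end of H2-K1, a class I histocompatibility gene.

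At Col3a1, Col5a1 and Col11a2 a replicated peak began at the same base in A and B. This held for 3 of the 20 replicated peaks of the family and for 3.59% of all 23641 overlapping pairs of entries. The cause was not tested.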
